A study of Arabidopsis thaliana with 12 samples.

Results

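The IQD genes of Arabidopsis thaliana encode plant-specific calmodulin-binding proteins, and 10 of them were followed here through a low water potential treatment in hai1-2 and wild-type seedlings. They were IQD21, IQD22, IQD23, IQD24, IQD26, IQD28, IQD30, IQD31, IQD32 and IQD33, taken by symbol from the platform annotation, in which each had 1 probe set that named no other gene. They are 10 of the 13513 single-gene probe sets on the array and 10 of the 33 IQD genes in the RefSeq annotation of TAIR10.1. A further 5 family members, IQD15, IQD16, IQD18, IQD19 and IQD27, also had a single-gene probe set, and the remaining family members were not analysed here. The symbols IQD21, IQD32 and IQD33 are written in lower case in the annotation.

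Proteins of this family share a central domain built around repeated IQ motifs, short stretches that hold calmodulin, the main calcium sensor of plant cells. Many of them sit on microtubules or the plasma membrane and bring calmodulin and kinesin light chain-related proteins there, so that the family is regarded as a set of scaffolds linking calcium signals to the cytoskeleton. Known members act on cell shape and growth: the tomato gene SUN elongates the fruit, Arabidopsis IQD5 shapes leaf epidermal cells, and IQD13 shapes the wall of xylem vessels. Seedlings held at low water potential slow their growth, and abscisic acid signalling takes part in that response.

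The 4 groups held 3 arrays each: hai1-2 at -1.2 MPa, hai1-2 at -0.25 MPa, Col-0 at -1.2 MPa and Col-0 at -0.25 MPa. The mutant hai1-2 is in the Col-0 background and affects HAI1 (At5g59220), a protein phosphatase that restrains abscisic acid signalling. Plants of both genotypes were grown on sugar-free agar, moved at 7 days to fresh control plates (-0.25 MPa) or to plates equilibrated with polyethylene glycol (-1.2 MPa), and harvested whole after 96 h. Each of 3 independent experiments supplied 1 sample of every group, but the labels do not state that the replicate number is that of the experiment, so values are set side by side below by replicate number. The mutant is represented by 1 allele, and the genotype labels were not checked here against the level of HAI1, which the annotation does not name.

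Each sample was hybridised to 1 single-colour Affymetrix array of 22810 probe sets, with median signals of 195 to 212. Signals are MAS5 intensities on a linear scale, and differences are given on a scale of log2(signal + 16), which understates changes of weak genes. A difference was called at an adjusted p under 0.05 from limma, fitted to all 12 arrays and adjusted over the 17059 probe sets that passed a filter on low signal. All 10 IQD probe sets passed that filter. Their mean log2 values ran from 6.73 for IQD33, above 36.0% of all probe sets, to 9.98 for IQD31, above 85.1%. The signal of a probe set depends on its own probes, so levels were not compared between genes.

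At low water potential the IQD genes moved mostly downwards, with 1 clear exception. IQD21, IQD22, IQD24, IQD31 and IQD33 fell in hai1-2 and in Col-0, IQD30 rose in hai1-2 and in Col-0, and IQD23, IQD26, IQD28 and IQD32 were called in neither genotype. The 5 falls of 10 compare with 17.8% of all tested probe sets falling in hai1-2 and 16.1% in Col-0, and the 1 rise of 10 with 19.9% rising in hai1-2 and 18.1% in Col-0. The IQD genes were chosen with earlier results of these data known, so this comparison does not test the family. The median change of the 10 genes was -0.49 in hai1-2 and -0.49 in Col-0, beside medians over all tested probe sets of 0.07 in hai1-2 and 0.07 in Col-0. Every stressed array lay below every control array for 6 of the 10 genes in hai1-2 and 5 in Col-0, as it did for 23.3% of all tested probe sets in hai1-2 and 20.2% in Col-0. It lay above for 1 gene in each genotype, as for 28.7% of all tested probe sets in hai1-2 and 24.5% in Col-0. Seedlings are mixtures of tissues, so fewer cells of a type and less transcript per cell cannot be told apart in these values.

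IQD21 (AT3G49260) had the largest response of the 10. Its signal was 83.7, 124 and 122 in stressed hai1-2 seedlings, against 648, 510.4 and 485 in hai1-2 controls. In Col-0 it was 113, 145 and 157 under stress, against 618, 491 and 550 on control plates. No stressed array came near any control array: the mean under stress was 20.1% of the control mean in hai1-2 and 25.1% in Col-0. The log2 change of IQD21 was -2.17 ± 0.19 in hai1-2 (SE, 3 arrays per group, adjusted p = 1.0e-06) and -1.88 ± 0.19 in Col-0 (adjusted p = 4.4e-06). Among all tested probe sets, 1.45% had a change as low or lower in hai1-2 and 1.85% in Col-0.

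IQD24 (AT5G07240) was the next largest fall. Its signal was 182, 282 and 208 in stressed hai1-2 against 658, 519.6 and 465 in hai1-2 controls. In Col-0 the stressed arrays read 243, 253 and 178, against 685, 436 and 711 for the controls. The groups were again well apart, although the control arrays of Col-0 were themselves widely spread, at 611 ± 152 (SD, n = 3), with replicate 2 lowest. The log2 change was -1.24 ± 0.22 in hai1-2 (adjusted p = 6.5e-04) and -1.36 ± 0.22 in Col-0 (adjusted p = 3.5e-04). By replicate number it was -1.77, -0.84 and -1.10 in hai1-2 and -1.44, -0.75 and -1.91 in Col-0, the smallest fall being that of replicate 2 in each genotype.

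**Figure D1:**
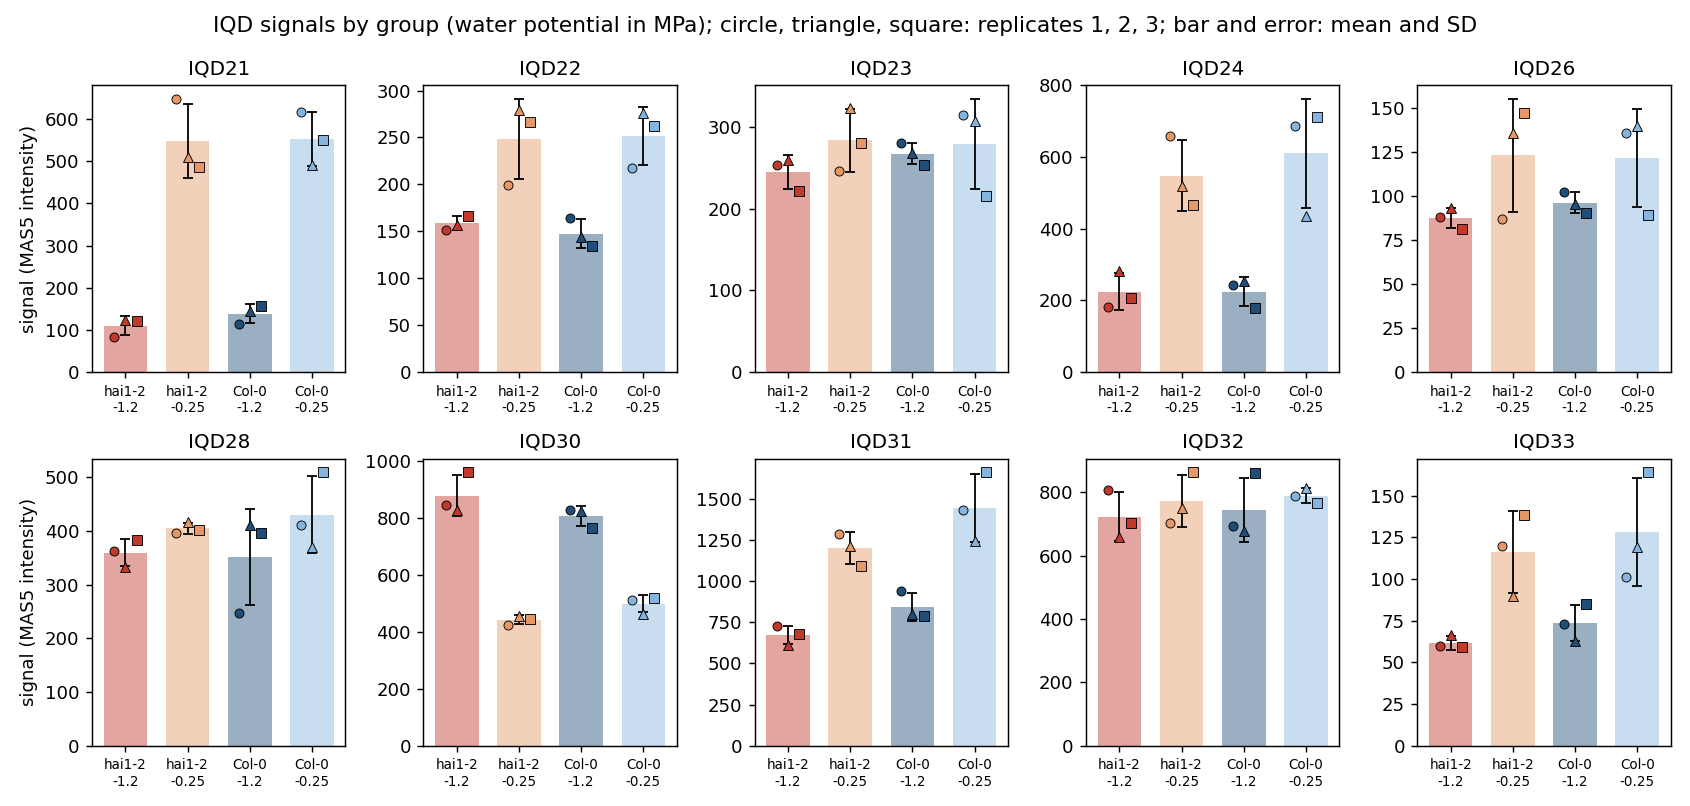
Signal (MAS5 intensity, linear scale from 0) of each of the 10 IQD probe sets in the 4 groups, labelled by genotype and water potential in MPa; bars are means, error bars SD (n = 3), and circles, triangles and squares are replicates 1, 2 and 3. IQD21 stands at 109.9 and 139 in stressed hai1-2 and Col-0 against 548 and 553 in their controls, while IQD30 is higher under stress and IQD32 differs little between groups.

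IQD31 (AT1G74690), IQD22 (AT4G23060) and IQD33 (AT5G35670) fell by smaller amounts. IQD31 gave 726, 614 and 679 in stressed hai1-2 against 1289, 1216 and 1095 in hai1-2 controls. In Col-0 it gave 941, 800.2 and 787 under stress, against 1429.7, 1247 and 1661 on control plates. Stressed and control arrays did not overlap in either genotype, and the change was -0.82 ± 0.14 in hai1-2 (adjusted p = 5.5e-04) and -0.76 ± 0.14 in Col-0 (adjusted p = 0.00111).

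For IQD22 the stressed hai1-2 arrays read 152, 157 and 167, against 199, 279 and 267 for hai1-2 controls. The stressed Col-0 arrays read 164, 143 and 135, against 217, 276 and 262 for Col-0 controls. Every stressed array lay below every control array, and in each genotype the control array of replicate 1 was the lowest of its group. IQD22 changed by -0.59 ± 0.17 in hai1-2 (adjusted p = 0.0134) and by -0.71 ± 0.17 in Col-0 (adjusted p = 0.00473). The call in hai1-2 ended without hai1-2 control replicate 2 (adjusted p = 0.0614) or replicate 3 (adjusted p = 0.0526), and the adjusted p lay between 0.00138 and 0.0614 over all the alternatives.

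IQD33 stood at 59.7, 66.3 and 59.0 in stressed hai1-2 against 119.8, 90.1 and 139 in hai1-2 controls. In Col-0 it stood at 73.2, 62.8 and 84.8 under stress, against 102, 119 and 164 on control plates. The groups did not overlap, and the mean under stress was 53.1% of the control mean in hai1-2 and 57.4% in Col-0. Its change was -0.75 ± 0.21 in hai1-2 (adjusted p = 0.0133) and -0.67 ± 0.21 in Col-0 (adjusted p = 0.0260). These calls were lost when some single arrays were left out. In Col-0 the adjusted p was 0.0632 without stressed replicate 1, where the change stayed at -0.67. The adjusted p was 0.0912 without stressed replicate 2 (change -0.58) and 0.101 without control replicate 3 (-0.50). In hai1-2 it was 0.0614 without control replicate 3 (-0.63).

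IQD30 (AT1G18840) was the only member that rose. Its signal was 847, 829.5 and 961 in stressed hai1-2 against 425, 457 and 447 in hai1-2 controls. In Col-0 it was 830.5, 826 and 766 under stress, against 513, 465 and 519 on control plates. The stressed arrays of both genotypes lay above all control arrays, and the replicates were close together. The stressed mean was 198% of the control mean in hai1-2 and 162% in Col-0, and the log2 change was 0.96 ± 0.12 in hai1-2 (adjusted p = 4.2e-05) and 0.68 ± 0.12 in Col-0 (adjusted p = 8.9e-04). Of all tested probe sets, 91.7% had a change as low or lower in hai1-2 and 86.4% in Col-0. The rise of IQD30 and the falls of IQD21, IQD24 and IQD31 kept their direction and their call under every alternative run.

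**Figure D2:**
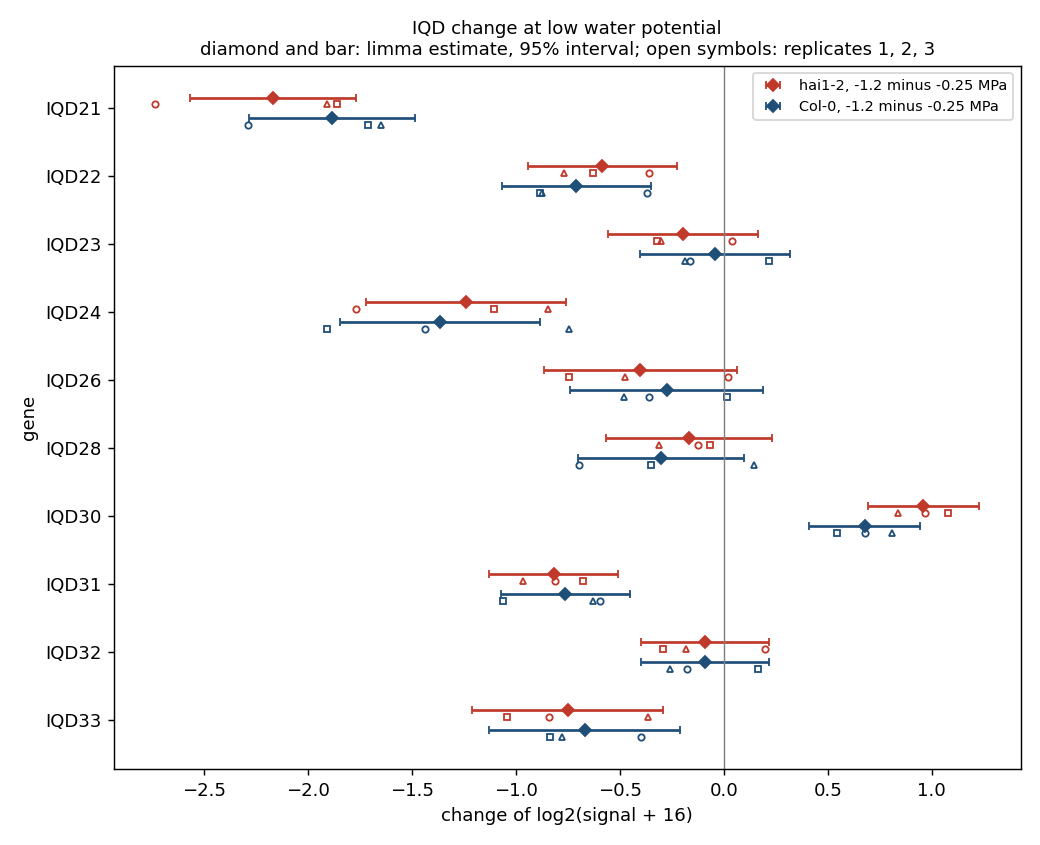
Change of log2(signal + 16) (-1.2 minus -0.25 MPa) for the 10 IQD genes, with hai1-2 above Col-0 in each pair; diamonds and bars are limma estimates with 95% intervals, and open circles, triangles and squares are the differences between arrays of replicate number 1, 2 and 3. The interval lies below 0 in hai1-2 and in Col-0 for IQD21, IQD22, IQD24, IQD31 and IQD33 and above 0 for IQD30.

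The other 4 members were not called in either genotype. IQD32 (AT1G19870) had means of 723 ± 76.5 in stressed hai1-2 and 771 ± 82.5 in hai1-2 controls, and of 744 ± 102 in stressed Col-0 and 789 ± 23.5 in Col-0 controls (SD, n = 3 each). Its changes of -0.09 in hai1-2 (95% interval -0.40 to 0.22) and -0.09 in Col-0 (-0.40 to 0.22) have intervals that do not reach a change of the size seen in IQD21, IQD24 or IQD30. IQD23 (AT5G62070) stood at 245 ± 20.4 in stressed hai1-2 and 284 ± 38.6 in hai1-2 controls, and at 267 ± 13.1 in stressed Col-0 and 279.7 ± 55.2 in Col-0 controls. Its changes were -0.20 in hai1-2 (-0.56 to 0.17) and -0.04 in Col-0 (-0.41 to 0.32), and the Col-0 estimate turned positive without Col-0 control replicate 1 or 2 (0.05 and 0.03).

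IQD28 (AT1G14380) averaged 359.6 ± 25.2 in stressed hai1-2 and 405 ± 10.3 in hai1-2 controls, where the arrays did not overlap, and 352 ± 90.2 in stressed Col-0 and 431 ± 71.1 in Col-0 controls, where they did. Its changes were -0.17 (-0.57 to 0.23) in hai1-2 and -0.30 (-0.70 to 0.10) in Col-0. IQD26 (AT3G16490) gave 88.0, 92.9 and 81.2 in stressed hai1-2 against 86.7, 135 and 147 in hai1-2 controls. In Col-0 it gave 102, 95.5 and 90.2 under stress, against 136, 139.6 and 89.2 on control plates. In each genotype 1 control array lay among or below the stressed ones: that of replicate 1 in hai1-2 and that of replicate 3 in Col-0. The change was -0.40 (-0.86 to 0.06) in hai1-2 and -0.28 (-0.74 to 0.19) in Col-0. In hai1-2 IQD26 was called without hai1-2 control replicate 1 (-0.61, adjusted p = 0.0427) and with array weights (-0.55, adjusted p = 0.0175), and the choices tried gave adjusted p between 0.0175 and 0.416.

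The genotypes were compared next, to ask whether the hai1-2 mutation altered IQD transcripts. None of the 10 genes was called on control plates, at low water potential or for the genotype by water potential interaction. Over all tested probe sets, limma called 0% on control plates, 0.00586% (1 probe set) at low water potential and 0.00586% (1 probe set) for the interaction. At an unadjusted p under 0.05, 0 of the 10 genes passed on control plates, 1 at low water potential and 0 for the interaction, beside 546, 953 and 732 of the 17059 probe sets. The 95% intervals, which are not adjusted for the number of tests, reached 0.27 to 0.48 to either side of the estimate for the differences between genotypes and 0.38 to 0.68 for the interaction.

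IQD31 was the member with an unadjusted p under 0.05. At low water potential it stood at 673 ± 56.3 in hai1-2 and 843 ± 85.7 in Col-0 (SD, n = 3 each), with every hai1-2 array below every Col-0 array. The difference was -0.32 (95% interval -0.63 to -0.0045, limma adjusted p = 0.886), and its adjusted p ran from 0.506 upwards over the alternatives. Of all tested probe sets, 7.59% likewise had their stressed hai1-2 arrays below all stressed Col-0 arrays. On control plates IQD31 averaged 1200.2 ± 98 in hai1-2 and 1446 ± 208 in Col-0, a difference of -0.26 (-0.57 to 0.05), and the interaction was -0.06 (-0.50 to 0.38).

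IQD30 and IQD21 had the largest interaction estimates. For IQD30 the rise was 0.96 in hai1-2 and 0.68 in Col-0, and the interaction was 0.28 (95% interval -0.10 to 0.66, limma adjusted p = 0.990). By replicate number it was 0.29, 0.03 and 0.53. On control plates every hai1-2 array of IQD30 (425 to 457) lay below every Col-0 array (465 to 519), as 3.53% of all tested probe sets did, without a call. For IQD21 the change was -2.17 in hai1-2 and -1.88 in Col-0, with an interaction of -0.29 (-0.85 to 0.28) that was -0.44, -0.26 and -0.15 by replicate number. The other 8 members had interaction estimates between -0.15 and 0.13.

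**Figure D3:**
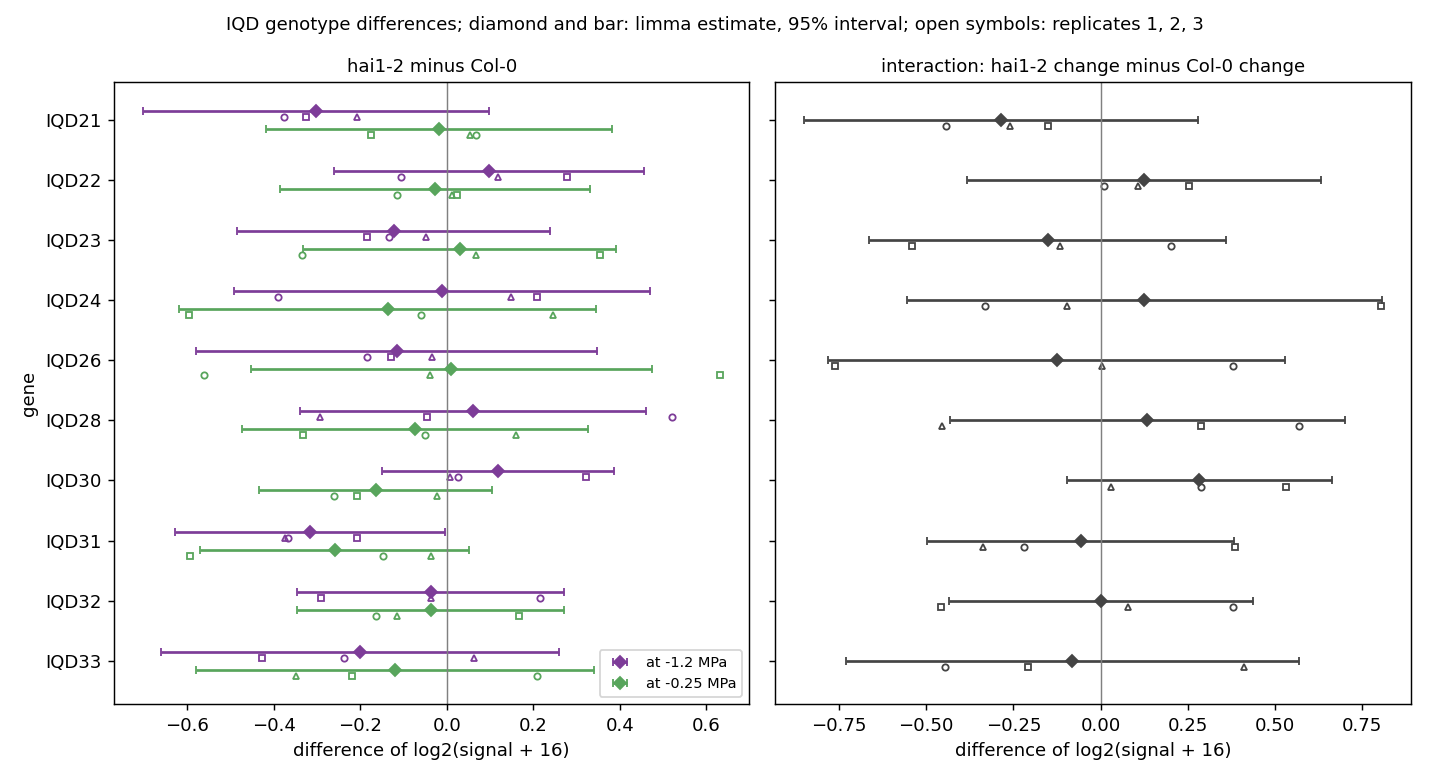
Left, hai1-2 minus Col-0 at -1.2 MPa and at -0.25 MPa, and right, the hai1-2 change minus the Col-0 change, on the log2(signal + 16) scale for the 10 IQD genes; diamonds and bars are limma estimates with 95% intervals, open symbols the differences by replicate number 1, 2 and 3. The interval of IQD31 at -1.2 MPa (-0.63 to -0.0045) is the only one that does not include 0, and it was not called after adjustment.

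The ratio of 5' to 3' GAPDH signal, a sign of RNA integrity, was 1.11 ± 0.0585 in stressed hai1-2 and 0.943 ± 0.0894 in hai1-2 controls, and 0.869 ± 0.101 in stressed Col-0 and 1.00 ± 0.0192 in Col-0 controls (SD, n = 3 each). An older set of GAPDH probes on the same arrays ordered the groups differently, at 0.734 ± 0.0872 in stressed hai1-2 and 0.825 ± 0.168 in hai1-2 controls, and 0.974 ± 0.249 in stressed Col-0 and 0.695 ± 0.241 in Col-0 controls. Shoot markers fell beside the IQD genes: 4 of 4 were called down in hai1-2 (median change -1.02) and 4 of 4 in Col-0 (-0.90), with PSAN, a photosystem I protein, at -1.44 in hai1-2 and -1.38 in Col-0. Of 3 root markers, 3 rose in hai1-2 and 2 in Col-0, with the root-hair expansin EXPA7 at 1.85 in hai1-2 and 2.34 in Col-0. Mean log2 values of the shoot markers ran from 8.86 (LHCB4.3) to 14.1 (LHCB4.1), and those of the root markers were 7.35 for EXPA7, 7.68 for the expansin EXPA18 and 14.1 for the root beta-glucosidase PYK10. PYK10 was the root marker not called in Col-0, at 0.18 ± 0.13 there and 0.40 ± 0.13 in hai1-2. The 3 markers of dividing cells, AUR1, AUR2 and PRL, all fell in hai1-2 (median -0.61) and were not called in Col-0 (median -0.37). Among all tested probe sets, 17.8% fell and 19.9% rose in hai1-2, and 16.1% fell and 18.1% rose in Col-0. No marker of the 3 lists was called for the interaction. The summed signal of the 4 shoot markers was 26733 to 31690 in stressed hai1-2 against 52351 to 64829.5 in hai1-2 controls, and 28071 to 33917 in stressed Col-0 against 45434 to 58029 in Col-0 controls. That of the 3 root markers, most of which is PYK10, was 20978 to 23209.6 in stressed hai1-2 against 14764 to 18259.9 in hai1-2 controls, and 16036 to 23401 in stressed Col-0 against 16345 to 16954 in Col-0 controls. EXPA7 averaged 351 in stressed hai1-2 against 79.4 in hai1-2 controls, and 335 in stressed Col-0 against 51.5 in Col-0 controls. For the markers of dividing cells the sum was 659 to 708 in stressed hai1-2 against 1061 to 1212 in hai1-2 controls, and 725 to 951 in stressed Col-0 against 1051 to 1088 in Col-0 controls. The lowest signal of any marker on any array was 42.3, that of EXPA7 on a Col-0 control array. The part of these shifts in the IQD changes was not tested.

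The other named IQD genes were examined as well. Of the 5, IQD15, IQD16 and IQD27 lay below the low-signal filter, with highest signals of 54.4, 64.9 and 30.5, and were not tested. IQD19 (AT4G14750) gave 74.7, 83.8 and 70.6 in stressed hai1-2 against 176, 119 and 169.5 in hai1-2 controls. In Col-0 it gave 75.4, 71.4 and 64.1 under stress, against 204, 163 and 232 on control plates. The groups did not overlap, and IQD19 fell, at -0.87 ± 0.19 in hai1-2 (adjusted p = 0.00287) and -1.31 ± 0.19 in Col-0 (adjusted p = 1.4e-04). IQD18 was not called, at -0.61 ± 0.34 in hai1-2 and -0.47 ± 0.34 in Col-0. Over the 12 tested IQD genes together, 6 fell, 1 rose and 5 were not called in hai1-2, and the counts in Col-0 were the same, beside the 17.8% falling and 19.9% rising among all tested probe sets in hai1-2 and the 16.1% falling and 18.1% rising in Col-0.

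Calmodulin-like proteins, calcium sensors related to the calmodulin that IQD proteins bind, were named by 8 probe sets in the annotation used here, of which 6 were tested. None of the calmodulin genes themselves was named. In hai1-2 2 of the 6 fell and none rose, and in Col-0 2 fell and none rose, beside 17.8% of all tested probe sets falling in hai1-2 and 16.1% in Col-0. CML42, which takes part in trichome branching, fell at -1.42 ± 0.28 in hai1-2 and -1.32 ± 0.28 in Col-0, and CML30 at -0.75 ± 0.26 in hai1-2 and -0.84 ± 0.26 in Col-0. CML43 stood at 0.69 ± 0.34 in hai1-2 and 0.61 ± 0.34 in Col-0, and CML38 at -0.44 ± 0.59 in hai1-2 and -1.24 ± 0.59 in Col-0, without calls. Outside the naming rule, CML41 stood at 0.62 ± 0.23 in hai1-2 (adjusted p = 0.0501) and 0.49 ± 0.23 in Col-0 and was not called. The 2 untested genes lay below the filter on mean signal and had higher means under stress. CML37 averaged 88.8 in stressed hai1-2 against 14.1 in hai1-2 controls, without overlap of the arrays. In Col-0 it averaged 42.3 under stress against 10.3 on control plates, and the arrays overlapped (13.3 to 68.9 against 3.5 to 21.8). AT1G76640 averaged 50.9 in stressed hai1-2 against 8.10 in hai1-2 controls, with overlap (3.4 to 85.8 against 2.3 to 14.3). In Col-0 it averaged 51.1 under stress against 3.17 on control plates, without overlap.

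Tubulins, the subunits of the microtubules on which many IQD proteins sit, were measured by 7 probe sets. In hai1-2 6 fell and 1 was not called, beside 17.8% of all tested probe sets falling, and in Col-0 3 fell and 4 were not called, beside 16.1%. The counts do not show a difference between genotypes, and no tubulin was called for the interaction. TUB5 changed most, by -1.92 ± 0.16 in hai1-2 and -1.38 ± 0.16 in Col-0. TUB7 fell at -1.07 ± 0.13 in hai1-2 and -0.67 ± 0.13 in Col-0. TUA6 changed by -0.73 ± 0.16 in hai1-2, where it was called, and stood at -0.06 ± 0.16 in Col-0, where it was not. TUB6 was called in hai1-2 at -0.51 ± 0.12 and not in Col-0 at -0.30 ± 0.12, and TUA1 was called at -0.53 ± 0.16 in hai1-2 and at -0.68 ± 0.16 in Col-0. TUB9 was not called, at -0.32 ± 0.13 in hai1-2 and -0.23 ± 0.13 in Col-0. The sixth tubulin that fell in hai1-2 was TUB1, outside the naming rule, at -0.43 ± 0.14 there and -0.16 ± 0.14 in Col-0. Related tubulin genes resemble each other in sequence, and their probe sets may share signal.

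Of 4 microtubule-associated proteins tested, ATMAP65-6, of a family that crosslinks microtubules, fell at -1.31 ± 0.18 in hai1-2 and -0.86 ± 0.18 in Col-0. SPR1, a microtubule protein needed for straight growth, stood at 0.12 ± 0.14 in hai1-2 without a call and rose by 0.40 ± 0.14 in Col-0 (adjusted p = 0.0420). TON1B, which helps to organise cortical microtubules, was not called at -0.28 in hai1-2 and -0.10 in Col-0, nor was AT3G23090 at -0.39 in hai1-2 and -0.31 in Col-0. The myosin gene XI-I, whose protein also carries IQ motifs, was not called at -0.29 ± 0.19 in hai1-2 and -0.39 ± 0.19 in Col-0. No cellulose synthase complex gene was named in the annotation used here.

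**Figure D4:**
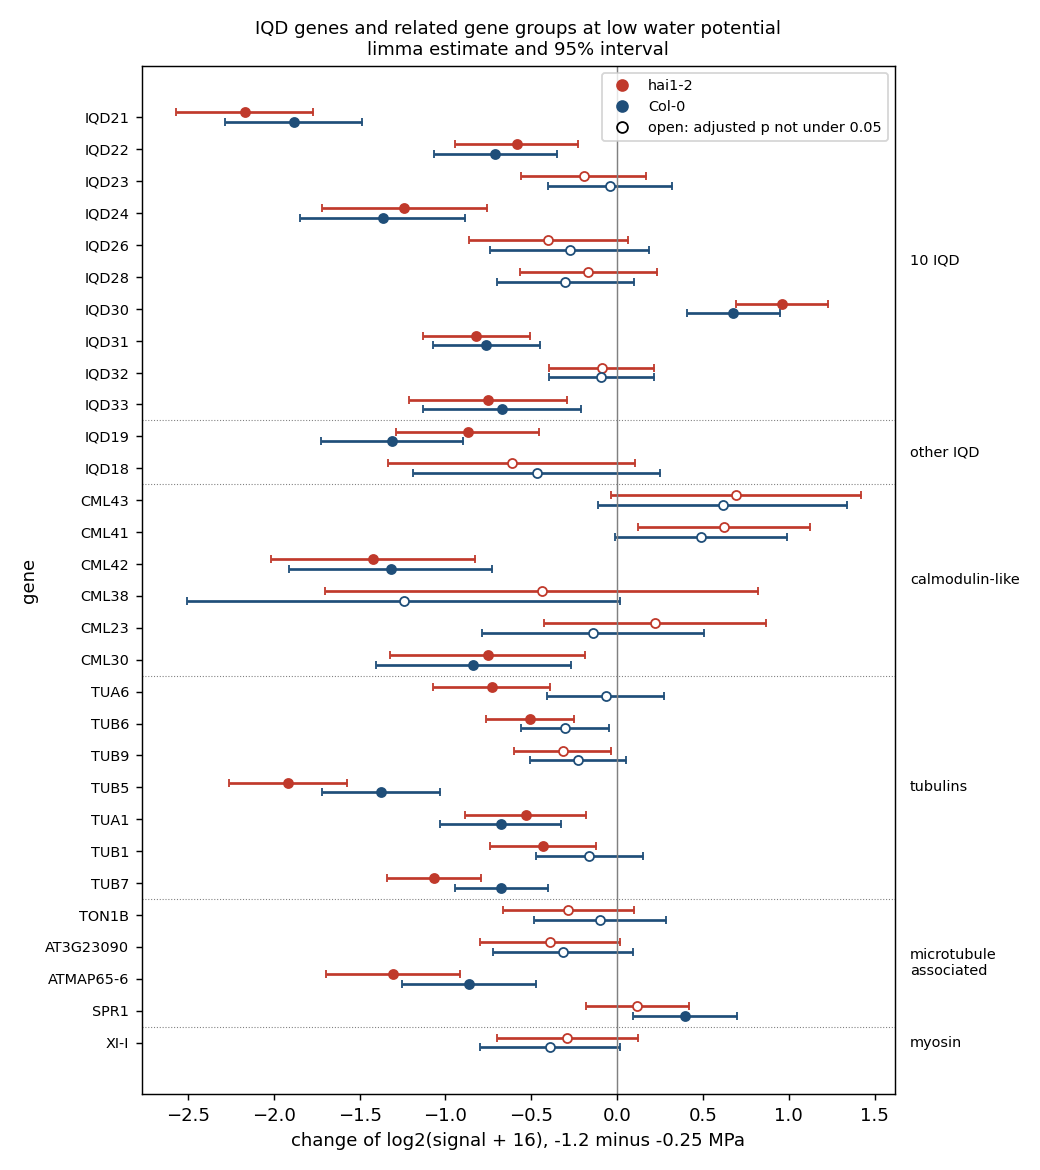
Change of log2(signal + 16) (-1.2 minus -0.25 MPa) for the 10 IQD genes and the tested members of related gene groups, with hai1-2 above Col-0 in each pair; points and bars are limma estimates with 95% intervals, and open points were not called. IQD30 is the only IQD gene to the right of 0, and TUB5 and CML42 show falls between those of IQD31 and IQD21.

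For the 3 members with the largest mean change over the genotypes, the single-gene probe sets of most similar pattern were sought by the root mean square difference over the 12 arrays, after each was centred on its own mean log2. Against IQD21 the smallest differences were those of AT1G32470 (0.164), NdhN, a subunit of the chloroplast NADH dehydrogenase-like complex (0.173), and AT4G17810 (0.181), where the median over 9395 probe sets was 1.10. Those of IQD24 were AT2G42220 (0.191), AT3G46630 (0.192) and AT4G37080 (0.193), against a median of 0.779. Those of IQD30 were AT2G33630 (0.0912), AT4G13360 (0.0950) and AT3G60180 (0.0967), against a median of 0.480. NdhN changed by -2.07 in hai1-2 and -1.79 in Col-0, beside -2.17 in hai1-2 and -1.88 in Col-0 for IQD21. This likeness follows from how NdhN was chosen.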

How the data were processed

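Total RNA of 12 seedling samples was hybridised to 12 arrays. The authors deposited linear signal intensities that came from MAS5, per the submitters' processing notes. The scaling target, any filter and the software version are not given in the sources used for this work. The mean intensity after trimming 2% at each end was the same on every array to the first decimal, so no further normalization was applied. Groups came from the sample titles.

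The 64 control probe sets and the lowest 25% of the others by mean log2(signal + 16), below 5.67, were left out. Group means were fitted to all 12 arrays with limma 3.58.1 (R 4.3.3, data.table version 1.17.8), with variances moderated along an intensity trend, two-sided tests and Benjamini-Hochberg adjustment over 17059 probe sets for each of 5 contrasts. SE is that of the fit, SD that of 3 signals. Simulated data for the Col-0 stress comparison held 100 changes of 1 and 100 changes of 2 on the log2 scale among 17059 probe sets. The fit recovered 60% of the changes of 1 and 98% of those of 2, with 12 false calls. The data themselves gave 5838 calls in that comparison, and the adjustment depends on how many probe sets change, so these rates need not hold. The number of arrays limits the precision.

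Per the series' design text each experiment gave 1 sample to every group, and replicate numbers were taken as experiment numbers, which the labels do not state. Same-numbered deviations from group means correlated at 0.128 to 0.517 between genotypes on control plates, against -0.422 to 0.164 for different numbers. At -1.2 MPa the ranges were 0.227 to 0.263 and -0.136 to -0.104, so same-numbered arrays were more alike there. Deviations from a group mean cancel within the group, so higher values for same numbers push those for different numbers down. Part of the gap between the ranges is thus built in. Between treatments within a genotype the ranges were -0.0232 to 0.0929 and -0.153 to 0.117, and the numbers are thus not shown to pair those arrays. The main fit did not include the replicate number. Symbols were matched through TAIR10.1 by gene ID, and 13436 of 13513 single-gene probe sets had a locus. All IQD genes, in each genotype up to 4 called genes of each related list by adjusted p and up to 2 uncalled by mean log2, and 3 genes of similar pattern for 3 members were named. The IQD genes and lists were chosen with earlier results of these data known.

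The alternatives tried were a pseudocount of 1 or of 64, a filter removing nothing or the lowest 50%, quantile normalization, median centring, no trend, robust moderation, array weights, the replicate number as a block, only the 6 arrays compared, and leaving out each array.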

Additional observations from a re-analysis of the deposited data

How the results depend on the processing

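Under 23 alternatives, 12 of which leave out 1 array, the count of IQD genes called at low water potential lay between 4 and 7 in hai1-2 and between 4 and 6 in Col-0, against 6 in each. It was 4 in each with the lowest 50% of probe sets removed, where IQD22, IQD26 and IQD33 were not tested, and 4 in hai1-2 without hai1-2 control replicate 3. Leaving out single arrays gave 4 to 7 in hai1-2 and 5 to 6 in Col-0. The call of IQD33 in Col-0 was also lost with array weights (-0.61, adjusted p = 0.06001) and with the 6 arrays alone (-0.67, adjusted p = 0.0547). With the replicate number as a block, the count stayed at 6 in each genotype and no call of an IQD gene changed. This block fits a shift per replicate number that is shared by all 4 groups. It does not model a likeness of same-numbered arrays within a treatment only, so the genotypes were not compared as pairs within a treatment. No alternative called an IQD gene between genotypes or for the interaction. Over all tested probe sets, the block called 1 on control plates, against 0, and 3 at low water potential between genotypes, against 1. Array weights also gave 3 there, and a pseudocount of 64, no trend and the 6 arrays alone gave 2 each. Leaving out single arrays gave 0 to 1 on control plates and 1 to 2 at low water potential. Without single arrays, the uncalled change of IQD23 in Col-0 ran from -0.21 to 0.047 and the interaction of IQD31 from -0.16 to 0.044, so their signs are unsettled; the cause was not tested. Of 24 further genotype and interaction estimates of IQD genes, 17 changed sign in at least 1 alternative, with none above 0.17 in size after the change and 0 called. The precision is limited by 3 arrays per group.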
